A study of Mus musculus and Homo sapiens with 15 samples.

Results

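The genes described here are those that code for translation factors, the proteins that load messenger RNA onto the ribosome and carry it through protein synthesis, together with the enzymes that modify them and the pseudogenes that bear their names. They were taken by symbol: every gene named in an edit cluster label with a symbol that begins with Eif or Eef (mouse brain) or EIF or EEF (human cells) and goes on with a digit. By this rule 68 of the 20838 genes labelled in the brain libraries and 98 of the 18756 labelled in the human libraries were members. Of the 68 mouse genes 65 were annotated as protein-coding and 1 as a pseudogene, and the annotation did not hold the symbols of the other 2. Of the 98 human genes 67 were protein-coding, 28 were pseudogenes and 2 were long non-coding RNAs, and the annotation did not hold the symbol of 1. A further 3 protein-coding mouse genes that fit the rule (Eef1akmt3, Eif2s3y and Eif4e1b) and 4 human ones (EEF1A2, EIF1AY, EIF2S3B and EIF4E1B) had no cluster in any library. All values come from INSCRIBE, in which a purified fusion of the cytosine deaminase APOBEC1 and a nanobody against rabbit antibodies is added to fixed cells or tissue, so that cytosines near the antibody's target are edited to uracil and read as C-to-T mismatches.

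There were 15 libraries in 5 groups of 3. The brain groups were paraformaldehyde-fixed coronal slices of 2-month-old female C57BL/6J mice, treated with antibody against RBFOX2 plus the enzyme (RBFOX2-INSCRIBE), with the enzyme and no antibody (enzyme-only), or with neither (buffer-only). The sources differ on whether slices came from 1 or 2 mice in all, so the 3 libraries of a group are slices and not 3 animals. The human groups were HEK293XT cells, a line derived from embryonic kidney, treated with the enzyme and no antibody, with libraries made from 1 ng or from 100 pg of RNA; HEK293XT libraries with RBFOX2 antibody are not analysed here. The paper ran its replicates on separate slides and calls them technical replicates in its figure legends. Nothing in the labels says that the HEK293XT libraries came from separate cultures. The p-values thus measure only the spread between these libraries, which may be technical. Edited reads that lay in 1 gene at filtered sites numbered 178493 to 311942 per brain library and 48430 to 73265 per HEK293XT library. The neuronal markers were read in every brain group (7290 to 8138 CPM, edited reads per 1000000 edited reads of the library, summed over 6 genes), while 4 neuronal markers summed to at most 61.9 in HEK293XT, where CAMK2A and SNAP25 were at 0 in both groups. Markers of choroid plexus and blood summed to at most 7.47 CPM in any brain group, with Ttr, Folr1 and Hba-a1 at 0. Oligodendrocyte markers (4 genes) summed to 353 to 465 CPM with RBFOX2 antibody, to 579 to 594 with enzyme alone and to 423 to 527 with buffer. Astrocyte markers (4 genes) summed to 1584 to 2113, 1701 to 1865 and 1233 to 1382 CPM in the same order. Enzyme-only and buffer-only slices thus did not overlap in either list. RBFOX2-INSCRIBE and enzyme-only slices did not overlap in oligodendrocyte markers, and they overlapped in astrocyte markers. The part of these markers in the results was not tested. Fewer cells of a type and less RNA per cell cannot be told apart in such bulk samples.

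Translation begins when the eIF4F complex binds the cap of a messenger RNA: eIF4E holds the cap, eIF4G (genes Eif4g1 and Eif4g3) is the scaffold, and eIF4A is the helicase. The eIF3 complex and the eIF2 complex bring the small ribosomal subunit and the initiator transfer RNA, and eIF5 and eIF5B act as the ribosome finds the start codon and the large subunit joins. Elongation uses eEF1A to deliver transfer RNAs, eEF2 to move the ribosome and eIF5A to keep it from stalling. The 4E-BP proteins (Eif4ebp genes) hold eIF4E, the EIF2AK kinases turn off eIF2 under stress, and eEF2K turns off eEF2, steps that neurons use to control protein synthesis. RBFOX2 is an RNA-binding splicing regulator that recognises UGCAUG.

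Edited cytosines in members are shown as 21-base windows of the reference genome (mm10 or hg38), 5′ to 3′ on the strand of the gene, with the edited base in capitals. They were chosen after their values were seen. Those of Eif1ax and EIF3M were found in 4 libraries, those of Eif4g3, Eif5a2 and Eif4e in all 3 libraries of a group and those of EEF2 and EIF4A2 in 3 of 6. The first Eif4g2 window has the same bases as the EIF4G2 one, and the second holds a TGCATG. Sites of EEF2KMT, Eef1a1 and Eef1a2 that were also found in 4 libraries are not shown.
Eif4g2, 3′ untranslated region, chr7:111072506-111072526, minus strand: atgtcttaatCatagtctacc
EIF4G2, 3′ untranslated region, chr11:10797629-10797649, minus strand: atgtcttaatCatagtctacc
Eif4g2, 3′ untranslated region, chr7:111070819-111070839, minus strand: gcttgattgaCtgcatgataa
Eif1ax, 3′ untranslated region, chrX:159389352-159389372, plus strand: gtggacactaCaatggctgcc
Eif4g3, intron, chr4:138062070-138062090, plus strand: cctgagtctaCccacctgtct
Eif5a2, 3′ untranslated region, chr3:28798545-28798565, plus strand: tagaagaaaaCagataaatgg
Eif4e, 3′ untranslated region, chr3:138556167-138556187, plus strand: ttttttgtaaCtacaaagctt
EIF3M, coding sequence, chr11:32594960-32594980, plus strand: caccttcttaCtttaaaacca
EEF2, coding sequence, chr19:3977969-3977989, minus strand: cgctacctggCcgagaagtac
EIF4A2, 3′ untranslated region, chr3:186789523-186789543, plus strand: aaatttatttCctagttctgt

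A cluster's label can name many genes at once, so a label that holds a member's name did not always place the cluster in that gene. Of 6554 member labels in brain, 4355 (66.4%) had the cluster's centre within the member's own annotated span on its strand, and of the 2199 others 2192 were intron labels. In HEK293XT 1265 of 1461 labels (86.6%) lay inside. The 12 clusters labelled EEF1AKNMT were counted as outside because the annotation did not hold that symbol, and all lay within the gene it names METTL13. All labels were inside for 62 of the 68 mouse members and 70 of the 98 human ones, so that the 2199 in brain belonged to 6 genes. Eif4e3, which codes for an eIF4E-related cap-binding protein, ranked first in brain by label with 1565 edited bases in 1307 clusters, but only 82 of these clusters (95 edited bases) lay inside it. Of the 1225 outside, 1155 lay within Foxp1, a transcription factor gene next to it. Eef1akmt2, which codes for a lysine methyltransferase of eEF1A, ranked second with 913 clusters and 1065 edited bases; 80 clusters (105 edited bases) lay inside it, and its label ran over 2957 kb and named up to 37 genes at once. Eif4ebp3 had 8 of 126 clusters inside. In HEK293XT EIF4E3 had 4 of 40 clusters inside, and all 28 clusters labelled with the pseudogene EIF5A2P1 lay within MYO9A, a myosin gene.

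**Figure D1:**
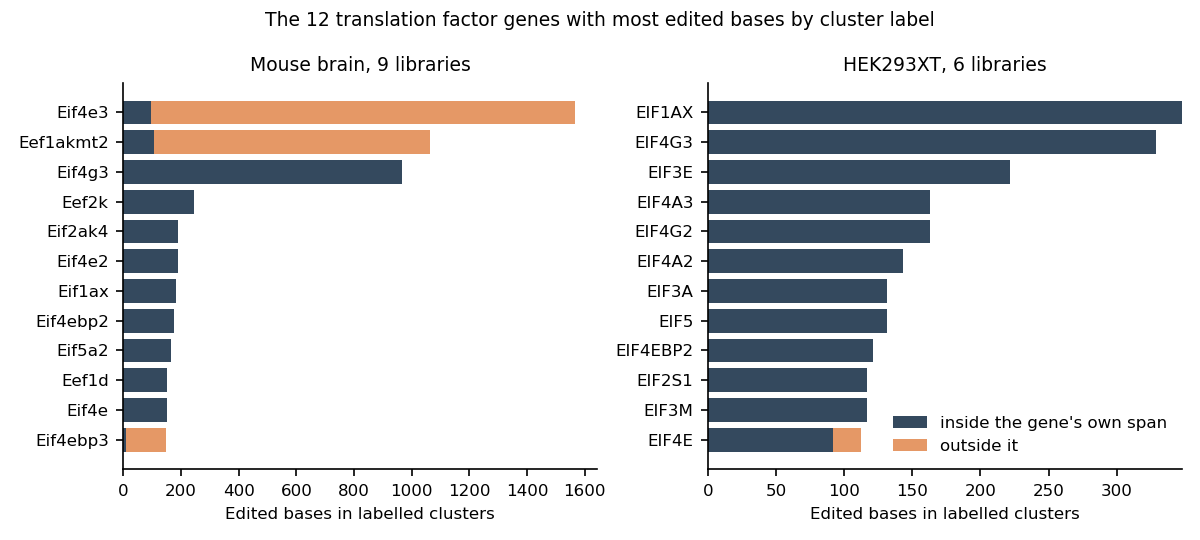
Edited bases in clusters labelled with each gene, summed over the 9 brain libraries (left) and the 6 HEK293XT libraries (right), for the 12 members with the highest sums; dark bars are clusters centred in the gene's own annotated span and light bars are the others. Eif4e3 and Eef1akmt2 lead the brain list, with 95 and 105 of their 1565 and 1065 edited bases inside, while all 966 of Eif4g3 are inside.

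By label the members held 820 to 986 clusters in each RBFOX2-INSCRIBE library, 704 to 742 with enzyme alone, 503 to 666 with buffer, 289 to 315 at 1 ng and 163 to 189 at 100 pg. Inside their own spans they held 515 to 584 clusters with RBFOX2 antibody, 499 to 526 with enzyme alone and 362 to 439 with buffer. As a share of all clusters of a library, those inside were 0.258% ± 0.00957 (SD, n = 3) in RBFOX2-INSCRIBE, 0.276% ± 0.0167 in enzyme-only and 0.250% ± 0.0148 in buffer-only slices, and these ranges overlapped between neighbouring groups. The HEK293XT shares were 0.915% and 0.990% in the 1 ng and 100 pg groups, and they overlapped as well.

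Within their own spans, 51.6% of member clusters carried an intron label in RBFOX2-INSCRIBE (45.8% to 55.0%) and 42.2% in enzyme-only (40.5% to 44.3%). The ranges did not overlap, but with 3 against 3 libraries the exact permutation test cannot go below a two-sided p of 0.1, which is the value it gave (0.176 after Benjamini-Hochberg adjustment over 30 such tests). Over all clusters of the same libraries the shares were 66.4% and 59.1%, also without overlap. A cluster counted there as intronic only if its label named no exon of any gene, whereas for members the member's own label decided. Buffer-only libraries ran from 40.6% to 56.7% and overlapped with both, whereas over all clusters they ran from 61.0% to 68.4% and lay above the enzyme-only ones (57.4% to 60.5%). In HEK293XT the intronic share of member clusters was 32.6% at 1 ng and 19.0% at 100 pg, again without overlap (exact permutation p = 0.1), whereas over all clusters the groups overlapped at 28.6% and 30.5%.

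Edited bases made up 0.409% of target bases in member clusters in RBFOX2-INSCRIBE (0.405% to 0.410%), 0.353% in enzyme-only (0.337% to 0.363%) and 0.332% in buffer-only (0.323% to 0.347%) when only clusters inside the members were counted. RBFOX2-INSCRIBE and enzyme-only did not overlap (exact permutation p = 0.1), while enzyme-only and buffer-only did. Over all clusters the order of overlap was the other way round: the groups were at 0.441%, 0.420% and 0.388%, the first pair overlapped and the second did not (exact permutation p = 0.1). In all 15 libraries the rate in members was below that of all clusters when clusters inside them were counted. With every cluster that carries a member's label it was above in 8 of the 9 brain libraries and below in the 6 HEK293XT ones, so in brain the direction turned with the placement of the labels. The gap was widest in HEK293XT, where members were at 0.405% (1 ng) and 0.355% (100 pg) and all clusters at 0.600% and 0.642%. Member sites there were also covered more deeply, with library medians of 24 to 36 covering reads at 1 ng and 56 to 83 at 100 pg. Over all filtered sites the medians were 19 to 20 and 23 to 24. In brain they were 17 to 26 at member sites and 16 to 17 over all sites. The part of coverage in these rates was not tested.

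**Figure D2:**
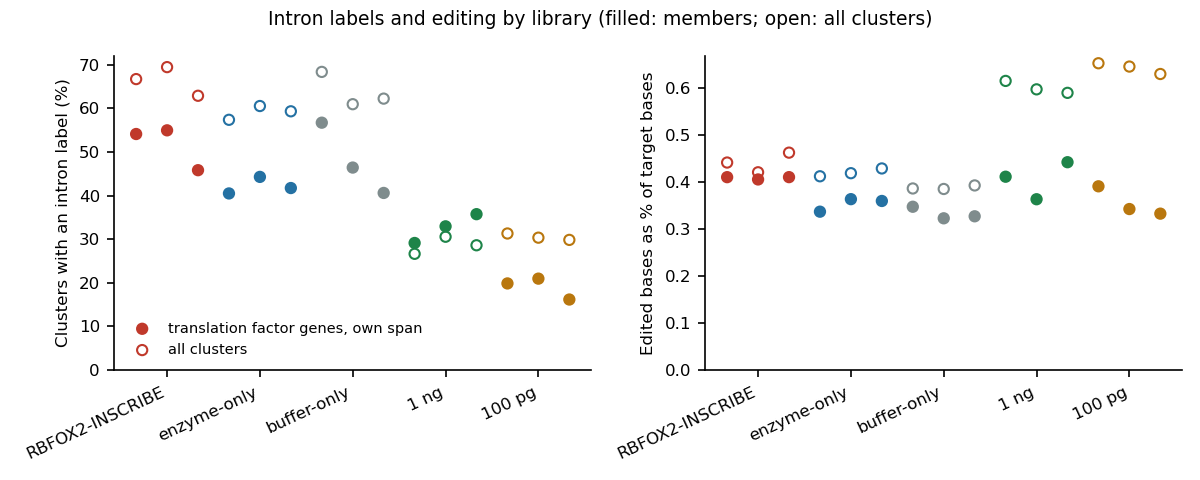
Percent of clusters with an intron label (left) and edited bases as percent of target bases (right) in each library, 3 libraries a group in replicate order; filled points are clusters inside translation factor genes and open points are all clusters of the library. The filled RBFOX2-INSCRIBE points lie above the filled enzyme-only points in both panels, and every filled point on the right lies below its open one. On the left, open points count as intronic only clusters with no exon of any gene in the label.

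The base before the edited cytosine also differed between slices with and without enzyme. APOBEC1 is known to favour a cytosine that follows A or U, as in the windows of Eif1ax, Eif4g3 and Eif5a2 shown above. Of the member sites, 32.6% followed an A in RBFOX2-INSCRIBE and 30.0% in enzyme-only, against 22.3% in buffer-only libraries (20.8% to 23.2%). Enzyme-only (29.2% to 30.6%) and buffer-only did not overlap (exact permutation p = 0.1), and RBFOX2-INSCRIBE and enzyme-only did. Over all brain sites the shares were 31.4%, 30.8% and 22.5%, with the same overlaps between groups as in members. In HEK293XT 44.3% of member sites followed an A at 1 ng and 39.2% at 100 pg, while over all sites of these libraries the shares were 37.0% and 28.4%. Every filtered member site had a cytosine in the reference on its own strand.

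Most member sites were seen once. Of 4622 distinct filtered sites in brain 95.9% were found in 1 library and 12 in 3 or more of the 9, and no site was found in more than 4. In HEK293XT 96.5% of 1358 sites were in 1 library and 7 were in 3 or more of the 6. A brain site carried 1.11 to 1.20 edited reads on average. HEK293XT sites carried 1.64 to 1.81 at 1 ng and 4.34 to 6.24 at 100 pg, where 169 to 183 member sites were left after filtering against 288 to 306 at 1 ng. Reads had no molecular identifiers, so several edited reads at 1 site are not independent molecules, and the intervals that counting would give do not cover this.

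The comparison of RBFOX2-INSCRIBE with enzyme-only slices asks which translation factor transcripts gained edits, relative to other genes, when the enzyme was brought to RBFOX2. No member passed edgeR's quasi-likelihood test at a Benjamini-Hochberg adjusted p under 0.05 over 6357 genes, of which 0.928% passed (0.912% higher and 0.0157% lower). DESeq2 called none either, but gave an adjusted p for 1 member alone. Of the 68 members 62 had an edited read at a filtered site that lay in 1 gene. The others, Eif4e3 and Eef1akmt2 among them, could not be tested. The low-count filter then left 25 members, which chose them by their level. Among them 12 had a positive and 13 a negative log2 change in edited reads, with a median of -0.04 beside -0.01 over all genes tested. With an offset for the covering reads at listed sites the medians were 0.08 and 0.02, so the members' direction turned with this choice. At an unadjusted p under 0.05 there were 2 members (12.1% of all genes), and 4 had groups that did not overlap (16.1% of all genes).

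Eif4g3 had the smallest p. Its 9 libraries gave 164, 140 and 124 edited reads in RBFOX2-INSCRIBE, 85, 99 and 104 with enzyme alone and 106, 73 and 72 with buffer. As CPM these were 527, 449 and 454, then 335, 370 and 421, then 440, 395 and 403. RBFOX2-INSCRIBE stood above both other groups in every library, by a log2 change of 0.40 ± 0.15 (SE) over enzyme-only that did not pass the test (edgeR adjusted p = 0.195). Of its 967 edited reads 90.2% lay in introns and 7.3% in coding exons, and its 764 clusters, all inside the gene (chr4 of mm10), made it the member with most edited bases in brain among clusters inside the own span (966). It held 113, 108 and 95 clusters with RBFOX2 antibody, 71, 77 and 84 with enzyme alone and 92, 62 and 62 with buffer. EIF4G3 had the same form in HEK293XT, with 86.7% of edited reads in introns.

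Of the 5 confident clusters that the deposited RBFOX2-INSCRIBE list placed in Eif4g3, the strongest was an intronic stretch of 240 bases at chr4:138061918-138062157. It held 5, 10 and 8 edited reads with RBFOX2 antibody, 1, 0 and 1 with enzyme alone and 1, 0 and 0 with buffer. The RBFOX2-INSCRIBE reads were spread over 17 cytosines, and the site in the Eif4g3 window shown above was the only one edited in all 3 libraries. A single TGCATG lay 186 bases downstream of its centre. Over the whole gene the hexamer lay in or within 50 bases of 5, 11 and 6 Eif4g3 clusters with RBFOX2 antibody, 5, 6 and 8 with enzyme alone and 8, 6 and 8 with buffer, out of the cluster numbers given above. The cluster list was made from these same libraries, so the difference is a description and was not tested. Coverage at positions with no listed site is unknown. In order of position the 5 confident clusters held 23, 1, 3, 7 and 1 edited reads in RBFOX2-INSCRIBE libraries. The buffer-only list also placed an intronic cluster in Eif4g3, at chr4:138186778-138186822, with 3 edited reads in buffer-only libraries.

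**Figure D3:**
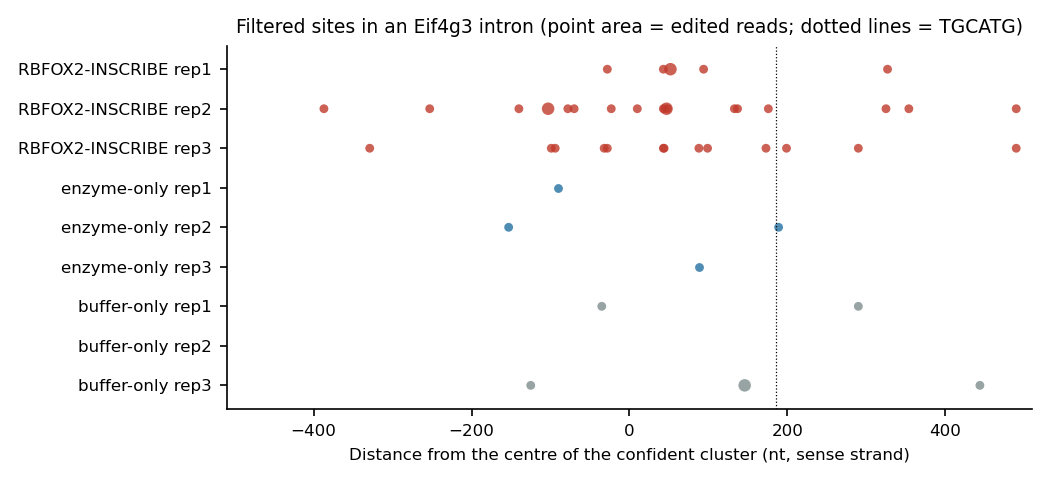
Filtered sites within 500 bases of the centre of the Eif4g3 intronic cluster, 1 row for each brain library; point area is proportional to edited reads at the site and the dotted line is the TGCATG. The RBFOX2-INSCRIBE rows hold 6, 19 and 13 edited reads and the other rows 0 to 4.

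Eif2b5, which codes for the catalytic subunit of the exchange factor for eIF2, was second. It gave 7, 10 and 5 edited reads with RBFOX2 antibody, 15, 11 and 13 with enzyme alone and 7, 7 and 4 with buffer. The enzyme-only libraries were the high ones, and RBFOX2-INSCRIBE lay below them without overlap at a log2 change of -0.98 ± 0.46 (edgeR adjusted p = 0.364). Eif2ak4, which codes for the amino acid sensor kinase GCN2, had the next smallest p, with 112, 109 and 69.6 CPM against 63.0, 86.0 and 64.8 in enzyme-only, and these groups overlapped (log2 change 0.51 ± 0.29, edgeR adjusted p = 0.514). Eif4e2, a cap-binding protein that represses translation, had 67.5, 70.5 and 76.9 CPM against 110, 93.4 and 109. Eef1d, a subunit of the exchange factor for eEF1A, had 48.2, 60.9 and 54.9 against 63.0, 86.0 and 93.2. Both were lower in every RBFOX2-INSCRIBE library than in any enzyme-only one, and neither passed (log2 changes -0.48 and -0.50).

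By role, the 16 initiation factors tested had a median log2 change of -0.25, with 6 positive and 10 negative. The 3 elongation genes (Eef1a2, Eef1d and Eif5a2) were at a median of 0.05, and the 6 regulators, which included Eef2k, Eif2ak4 and Eif4ebp2, at 0.04. Eef2k, the kinase of eEF2, gave 29, 28 and 48 edited reads against 30, 29 and 32, so that its difference of 0.05 came with overlap. Eif4ebp2, the main 4E-BP of brain, gave 9, 35 and 22 against 24, 19 and 18; 1 low and 1 high RBFOX2-INSCRIBE library bracketed the control.

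Summing edited bases of clusters by their labels, in place of edited reads at sites, gave 1 call in this comparison. Eif4e3 had 243, 301 and 267 edited bases in RBFOX2-INSCRIBE libraries and 100, 155 and 154 in enzyme-only ones, a log2 change of 0.72 ± 0.14 (edgeR adjusted p = 5.63e-04 over 9509 labelled genes, of which 1.39% were called higher and 1.62% in either direction). Inside Eif4e3 itself, however, there were 7, 6 and 14 clusters against 9, 8 and 9. With members counted inside their own spans alone and other genes still summed by label, no member was called. Eif4e3 was then at a log2 change of -0.20 ± 0.45 (edgeR adjusted p = 0.877). Most of the clusters behind the label sum lay in Foxp1, as given above.

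In the deposited confident lists, 19 of 5177 RBFOX2-INSCRIBE clusters (0.367%), 18 of 4542 enzyme-only clusters (0.396%) and 6 of 2092 buffer-only clusters (0.287%) named a member. Inside the member were 17, 18 and 5 of these. The paper removed buffer-only clusters from its confident ones, and the lists used here are those not named cleaned. In the deposited lists named cleaned, 18 of 5031 RBFOX2-INSCRIBE and 18 of 4401 enzyme-only clusters named a member. The Eef1a2 cluster of RBFOX2-INSCRIBE was not among them. RBFOX2-INSCRIBE clusters were found in Eef1a2, Eef1akmt2, Eef2k, Eif1ad, Eif1ax, Eif3e, Eif4e3, Eif4g3 and Eif5a2, and enzyme-only clusters in 14 genes that included Eef1e1, Eif1a, Eif2a, Eif2s1, Eif3a, Eif4e, Eif4ebp2 and Eif5a2. All enzyme-only clusters carried exon labels. Edited reads of a cluster were counted only at filtered sites that lay in 1 gene. Eef1akmt2 and Eif4e3 had no such site in any brain library. Their RBFOX2-INSCRIBE clusters could therefore only count 0 edited reads, which does not mean that they were unedited. The RBFOX2-INSCRIBE cluster in Eif3e held 1. An intronic Eef2k cluster at chr7:120877123-120877227 held 2, 1 and 10 edited reads with RBFOX2 antibody and none at filtered sites in the other 6 libraries, with 2 TGCATG within 100 bases; most of its reads came from replicate 3. A cluster in the 3′ untranslated region of Eif1ax, which codes for eIF1A, at chrX:159388709-159388753 held 8, 1 and 1 edited reads with RBFOX2 antibody and none in the others, and replicate 1 was the high one there. The buffer-only list held an exonic stretch of Eef1a2, the eEF1A form of neurons, at chr2:181156740-181156814, with 1, 1 and 4 edited reads with buffer, 2, 0 and 1 with enzyme alone and 3, 1 and 1 with RBFOX2 antibody, which overlapped.

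Single sites showed the same sparsity. The Eif4g2 site shared in sequence with human EIF4G2 had 0, 4 and 5 edited reads in RBFOX2-INSCRIBE (of 363 and 267 covering reads in replicates 2 and 3) and no filtered site in the 6 control libraries. Eif4g2 codes for DAP5, an eIF4G relative that works without the cap-binding protein. In HEK293XT, with no antibody, the base in the identical human window had 7, 0 and 9 edited reads at 1 ng and 0, 12 and 0 at 100 pg. The other Eif4g2 site, whose edited cytosine directly precedes a TGCATG, had 0, 4 and 2 edited reads with RBFOX2 antibody and none at filtered sites elsewhere. The Eif5a2 window was edited by 1 read in each RBFOX2-INSCRIBE library and the Eif4e window by 1 read in each enzyme-only library. The Eif1ax window had 4, 0 and 1 edited reads with RBFOX2 antibody, 0, 0 and 1 with enzyme alone and 0, 1 and 0 with buffer.

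The TGCATG hexamer, on the strand of the cluster and within the cluster or 50 bases on either side, (searched as those letters, with no overlap of other motifs counted) was found in 7.17%, 7.36% and 5.83% of member clusters of the RBFOX2-INSCRIBE libraries and in 4.37%, 4.41% and 5.91% of the enzyme-only ones. Buffer-only libraries had 6.38%, 4.40% and 8.01%, so members with and without RBFOX2 antibody overlapped. Over all clusters the shares were 6.66% to 7.08% with RBFOX2 antibody, 4.99% to 5.22% with enzyme alone and 4.90% to 5.07% with buffer.

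**Figure D4:**
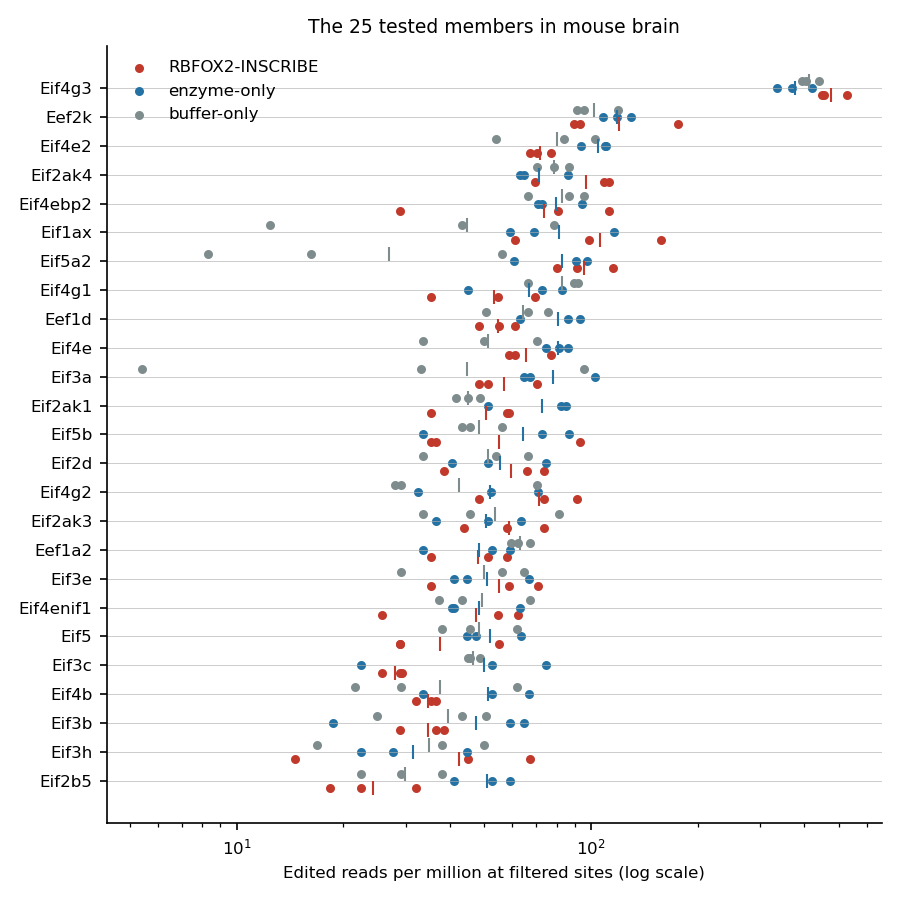
CPM of edited reads at filtered sites (log scale) for the 25 members that passed the count filter in brain; points are libraries, 3 a group, and ticks are group means. Eif4g3 lies highest, and Eif5a2 and Eif1ax have low buffer-only points.

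The comparison of enzyme-only with buffer-only slices asks which genes gained or lost edited reads, relative to other genes, with enzyme and no antibody. Counts were scaled to each library's edited reads, so a general rise in editing with enzyme cannot show in these changes. A negative change is a smaller share and need not be fewer edits. No member passed the test, beside 0.661% of 6357 genes (0.283% higher and 0.378% lower), and DESeq2, which gave an adjusted p for 1 member alone, called none. By edgeR 2 of 25 members had an unadjusted p under 0.05 (10.9% of all genes). The members' median log2 change was 0.14, beside -0.01 over all genes, with 15 positive and 10 negative. With the offset for covering reads it was -0.0099 beside -0.07, so its direction turned. Of the 25, 5 had groups without overlap (15.7% of all genes).

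Eif5a2, which codes for the second eIF5A form, lay nearest to the threshold. It gave 23, 26 and 15 edited reads in enzyme-only, 2, 3 and 10 in buffer-only and 36, 25 and 25 in RBFOX2-INSCRIBE libraries. As CPM these were 90.5, 97.2 and 60.8 against 8.3, 16.2 and 56.0, so every library with enzyme was above every library without. The log2 change was 1.62 ± 0.43 (edgeR adjusted p = 0.0549). Of its 165 edited reads 86.7% lay in the 3′ untranslated region. Without buffer-only replicate 3, the highest of its group, the change was 2.68 (edgeR adjusted p = 0.0047), and without enzyme-only replicate 3 it was 1.79 (edgeR adjusted p = 0.0435). Without any other of the 6 libraries it was 1.11 to 1.57, with edgeR adjusted p from 0.207 to 0.480. Eif5a2 passed with no filter on low counts (edgeR adjusted p = 0.0479), with only the groups compared (0.0469), with the replicate block (0.0494) and with cluster bases (0.0357 by label and 0.0356 inside the own span). Over all genes these settings called 0.227%, 0.915%, 0.724%, 0.389% and 0.389%. In the own-span setting only members were limited to their spans, and all other genes stayed summed by label. The 2 fits without a replicate in which Eif5a2 passed called 0.344% (buffer-only) and 0.317% (enzyme-only). It did not pass with every listed site (0.0676) or with the offset for covering reads (0.134).

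Eif1ax gave 15, 31 and 17 edited reads in enzyme-only and 3, 8 and 14 in buffer-only libraries, which overlapped as CPM (log2 change 0.86 ± 0.41, edgeR adjusted p = 0.427). It is edited in the same part of the transcript, with 92.3% of reads in the 3′ untranslated region. Eif3a, the largest subunit of eIF3, gave 26, 18 and 16 against 8, 1 and 17 (log2 change 0.75 ± 0.42, edgeR adjusted p = 0.540), and 1 buffer-only library was as high as the enzyme-only ones. Eif4e had 74.8, 86.0 and 81.0 CPM in enzyme-only and 49.8, 70.3 and 33.6 in buffer-only, without overlap, and did not pass (log2 change 0.56). Eef1a2 went the other way without overlap, at 59.0, 33.6 and 52.7 against 62.2, 59.5 and 67.2 (log2 change -0.47), and 75.4% of its reads were intronic. Eif2ak1 and Eif2b5 were higher in every enzyme-only library than in any buffer-only one, at log2 changes of 0.61 and 0.67, and neither passed. Eif4g3 was at -0.23 ± 0.16. By role, the initiation factors had a median of 0.21, with 11 positive and 5 negative, and the regulators one of -0.11, with 2 positive and 4 negative.

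In HEK293XT, where both groups had enzyme and no antibody, the comparison of 1 ng with 100 pg asks what less input RNA does to the measurement. Its sums per gene rest on a strand that is uncertain in these libraries. No member passed, beside 0.0515% of 1943 genes, which is 1 gene, while DESeq2 called 2 members (EIF4A3 and EEF2) among 86 genes, 4.43% of all. At an unadjusted p under 0.05 there were 2 members by edgeR (9.68% of all genes), and 3 had groups that did not overlap (18.7% of all genes). Of 25 members tested 19 had a negative log2 change, with a lower CPM at 1 ng than at 100 pg, and the median was -0.69 beside -0.01 over all genes. Of the 98 members 69 had an edited read at a filtered site that lay in 1 gene, and the others could not be tested. The low-count filter asked for enough edited reads in as many libraries as a group holds, so a member could pass through 1 group alone. It can thus favour members that were high at 100 pg, such as EIF4A3 and EEF2. These signs and the median are a description and no support for a shift of the members. With the offset for covering reads the members' median was 0.15 beside 0.40 over all genes, and with every listed site 0.09 beside -0.05. The sign thus turned under both, while members stayed below all genes with the offset and lay above them with every listed site. On simulated counts for this comparison the test recovered 0% of genes changed 2-fold and 6% of those changed 4-fold over 1943 genes, whereas it recovered 50% and 91% in the comparison of RBFOX2-INSCRIBE with enzyme-only slices over 6357 genes.

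EIF4A3, the helicase that forms part of the exon junction complex, differed most. It gave 2, 0 and 6 edited reads at 1 ng and 32, 35 and 88 at 100 pg, which is 41.3, 0 and 97.2 CPM against 437, 487 and 1253. Every 100 pg library was above every 1 ng one, at a log2 change of -3.99 ± 0.95 (edgeR adjusted p = 0.101). All 19 of its clusters were exonic. With the counts of every gene kept the adjusted p was 0.00161 (0.312% of 13152 genes called), with the replicate block it was 0.00663 (1.24% of 1943 called), and DESeq2 gave 9.29e-05. EEF2 gave 7, 4 and 3 against 29, 16 and 40 edited reads, also without overlap (log2 change -2.30 ± 0.86, edgeR adjusted p = 0.355, DESeq2 0.040), all in coding sequence. EIF3D, the eIF3 subunit that can bind the cap, gave 3, 10 and 1 against 9, 21 and 35, which overlapped as CPM (log2 change -2.02 ± 0.99, edgeR adjusted p = 0.533). EIF5 had 165, 162 and 64.8 CPM against 437, 487 and 185, without overlap (log2 change -1.53 ± 0.81), and was at 0.40 with the offset for covering reads.

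The members with most edits in HEK293XT were EIF1AX, EIF4G3 and EIF3E, with 348, 329 and 222 edited bases in clusters. EIF1AX gave 41, 50 and 30 edited reads at 1 ng and 138, 66 and 25 at 100 pg. The 100 pg libraries ran from 356 to 1884 CPM and enclosed the 1 ng ones, which ran from 486 to 847. EIF4G3 gave 59, 63 and 53 against 71, 62 and 24, with 33, 32 and 37 clusters against 14, 13 and 8. EIF3E gave 16, 29 and 18 against 98, 21 and 40 edited reads. EIF4G2, EIF4A2, EIF3A, EIF3M, EIF2S1, EIF4E, EIF4B and EIF4EBP2 had log2 changes between -1.01 and 0.29, and in all of them the groups overlapped. EEF1A1, among the most abundant messenger RNAs of the cell, had 3 clusters, whereas its pseudogene EEF1A1P5 had 11; reads from such near-identical copies can be split or lost in mapping, so values for this family are uncertain.

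Single HEK293XT sites were likewise uneven. The EIF3M window was edited in 4 of 6 libraries, with 4, 7 and 0 edited reads at 1 ng and 0, 16 and 12 at 100 pg, and with 303 to 486 covering reads where it was listed. The EEF2 window had 4, 0 and 0 against 10, 0 and 9, and the EIF4A2 window 7, 0 and 3 against 0, 0 and 6. Confident clusters named a member in 6 of 762 cases at 1 ng (EIF1AX, EIF1AXP1, EIF2S1, EIF4B and EIF4G3; 5 inside the member) and in 3 of 242 at 100 pg (EEF1A1P5, EIF3E and EIF3I). No gene was in both lists. The cleaned lists of the same groups named a member in 6 of 637 and 3 of 199 cases. The EIF2S1 cluster in the 3′ untranslated region at chr14:67383781-67383825 held 1, 2 and 3 edited reads at 1 ng and none at filtered sites at 100 pg.

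**Figure D5:**
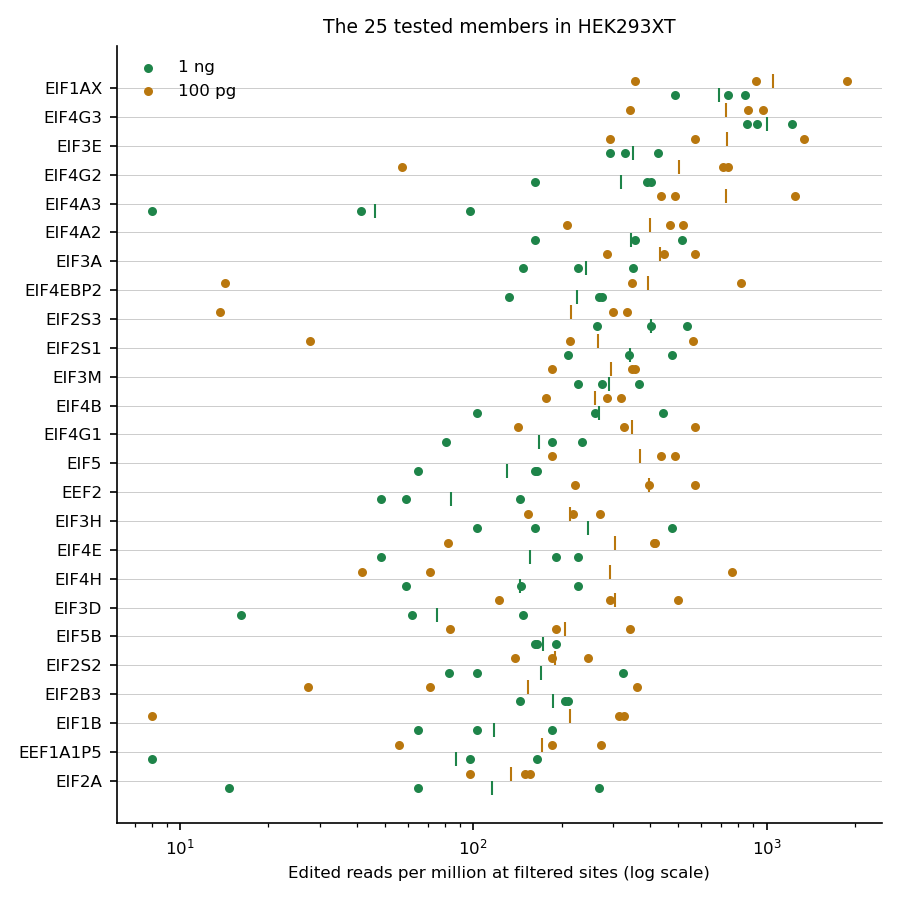
CPM of edited reads at filtered sites (log scale) for the 25 members that passed the count filter in HEK293XT; points are libraries, 3 a group, ticks are group means, and values of 0 are drawn at 8. EIF4A3, EEF2 and EIF5 show 100 pg points above all 1 ng points.

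Other genes of translational control, a list of 37 that held the poly(A)-binding proteins, release factors, the mTOR pathway, the Fragile X protein and its partners, and the CPEB and Pumilio repressors, were also without a call. In RBFOX2-INSCRIBE against enzyme-only 32 were tested and 0 had an unadjusted p under 0.05 by edgeR (12.1% of all genes). Their median log2 change was 0.12, beside -0.01 over all genes. In enzyme-only against buffer-only 4 of 32 had one (Mknk2, Tsc2, Pum2 and Larp4), near the share over all genes (10.9%). The median was -0.02, beside -0.01 over all genes. In HEK293XT 2 of 16 had one (9.68% of all genes), with a median of -0.23 beside -0.01 over all genes. PUM2 was at 3.30 ± 0.86 and LARP1 at -1.36 ± 0.57 (edgeR adjusted p = 0.112 and 0.425).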

How the data were processed

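The authors trimmed reads with cutadapt, removed repeats, mapped with STAR 2.4.0 (hg38) or 2.5.2 (mm10), listed C-to-T sites with SAILOR and called clusters with FLARE. Each deposited site has a score and its edited and covering reads. Each deposited cluster has counts of edited and target bases, an edited fraction, a score, a mean depth (coverage signal) and gene labels. The confident lists also hold adjusted p-values by the authors, which were not used here. Sites with score above 0.5 and edited fraction under 0.8 that lay in 1 annotated gene on their strand were summed per gene. The labels name a stranded and an unstranded kit, so strand can be uncertain. Genes were tested with edgeR 4.0.16 in R 4.3.3 (quasi-likelihood, TMM, filterByExpr), with 9 brain or 6 HEK293XT libraries in 1 fit, no block, and Benjamini-Hochberg adjustment. The script was tested on simulated counts, and DESeq2 1.42.0 was an alternative. Log2 changes are of edited reads relative to those of the library's other genes, and transcript level and editing cannot be told apart in them. Library measures used exact permutation tests, two-sided. Named genes were, per species, the 12 with most edited bases by label, any member called, the 3 with the smallest p per comparison and up to 10 per confident list; other tested members are named for their non-overlapping groups or role, chosen after their values were seen. Members, lists and tests were chosen with earlier results of these data known.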

Additional observations from a re-analysis of the deposited data

How the results depend on the processing

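The number of members called, 0 in each comparison, changed under several alternatives. In RBFOX2-INSCRIBE against enzyme-only it was 1 (Eif4e3) with cluster bases summed by label, beside 154 of 9509 genes. In enzyme-only against buffer-only it was 1 (Eif5a2) with no filter on low counts, with cluster bases by label or inside the own span, and with only the groups compared, beside 35 of 15440, 37 of 9509, 37 of 9508 and 52 of 5683 genes. In 1 ng against 100 pg it was 2 by DESeq2 and 1 (EIF4A3) with no filter, beside 86 of 1943 and 41 of 13152 genes, where the main test called 1 gene. Without 1 replicate at a time it was 0 to 0, 0 to 1 and 0 to 0. DESeq2 gave no adjusted p for 24, 24 and 6 of the 25 members. The own-span setting limited members alone to their spans, and other genes stayed summed by label.

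The median log2 change of members in RBFOX2-INSCRIBE against enzyme-only (-0.04) was -0.13 with no filter, -0.16 with cluster bases by label, -0.20 inside the own span, 0.081 with an offset for covering reads, and -0.15 to -0.049 without 1 replicate. In enzyme-only against buffer-only (0.14) it was 0.23 with no filter, -0.0099 with the offset and 0.066 to 0.25 without 1 replicate. In 1 ng against 100 pg (-0.69) it was 0.094 with every listed site, 0.15 with the offset and -1.05 to -0.33 without 1 replicate. The cause of these shifts was not tested.

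With the replicate number as a block, 0, 1 (Eif5a2, log2 change 1.63, edgeR adjusted p = 0.0494) and 1 (EIF4A3) members were called, beside 65, 46 and 24 genes in all, and the medians were -0.092 and -0.35 in the first and last comparison. Whether the numbers pair the libraries is not known. Deviations of same-numbered libraries correlated at -0.05 to 0.09, and those of other pairs at -0.13 to 0.12. With counts this sparse, values near 0 cannot decide it.

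By label, the intronic share of clusters was 68.4% to 72.2%, 57.6% to 60.8%, 59.7% to 66.7%, 39.4% to 42.9% and 25.9% to 28.7% without 1 replicate in RBFOX2-INSCRIBE, enzyme-only, buffer-only, 1 ng and 100 pg. It was 82.2%, 74.8%, 78.0% and 51.9% in the first 4 groups for clusters with score above 0.95, 51.6%, 42.2%, 47.9%, 32.6% and 19.0% inside the own span, and 23.0% at 100 pg without pseudogenes. The edited percent of target bases was 0.499% to 0.511%, 0.417% to 0.444%, 0.390% to 0.414%, 0.424% to 0.463% and 0.356% to 0.380% without 1 replicate, 0.483% in RBFOX2-INSCRIBE at a mean depth of at least 20, and 0.409%, 0.353% and 0.332% in the brain groups inside the own span. The score threshold and the own-span settings were chosen after seeing the data. A stricter adjusted p for clusters was not run, since the cluster tables used here give none.

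Of 642 values for single genes under alternatives, 578 kept their direction and side of the threshold, 11 passed it newly and 53, over 20 genes and comparisons, changed sign, with 0 of the 53 past the threshold. In RBFOX2-INSCRIBE against enzyme-only, Eef2k was at -0.20 with cluster bases by label and inside the own span, at -0.15 with the offset and at -0.31 to 0.22 without 1 replicate. Eef1a2 was at -0.27 and Eif4ebp2 at 0.085 with every listed site, and Eif4e at 0.037 with the offset. Without 1 replicate Eef1a2, Eif3e and Eif4ebp2 ran from -0.15 to 0.23, -0.049 to 0.41 and -0.51 to 0.37. In enzyme-only against buffer-only, Eif3e was at 0.15 with every listed site, 0.095 and 0.094 with cluster bases by label and inside the own span, and -0.34 to 0.21 without 1 replicate. Eef1d was at -0.070 with every listed site, and Eif3b at -0.090 to 0.59 without 1 replicate. In 1 ng against 100 pg with every listed site, EEF1A1P5, EIF1AX, EIF3A, EIF3M, EIF4A2, EIF4B and EIF4G2 were at 0.28, 0.094, 0.055, 0.58, 0.098, -0.54 and 0.53. With the offset EEF1A1P5, EIF1AX, EIF2S1, EIF3A, EIF3E, EIF3M, EIF4A2, EIF4E and EIF5 were at 1.65, 1.23, -0.14, 0.071, 0.34, 2.30, 0.15, 0.12 and 0.40. EIF4B was at -0.048 by DESeq2, -0.052 with its size factors, -0.17 with no filter and -0.16 with the replicate block. Without 1 replicate EIF1AX, EIF2S1, EIF3M, EIF4A2, EIF4B and EIF4EBP2 ran from -1.07 to 0.090, -0.26 to 1.44, -0.30 to 0.11, -0.66 to 0.082, -0.52 to 0.41 and -1.42 to 0.29. The cause of these changes was not tested. Sites with 1 edited read were 83.3% to 90.7% of member sites in brain libraries, 52.1% to 63.7% at 1 ng and 24.3% to 36.9% at 100 pg.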
